A study of Mus musculus with 14 samples.

Results

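The 93 genes described here encode, in the nucleus, subunits of the mitochondrial respiratory chain and of ATP synthase. They were all the rows whose symbol starts with Nduf, Uqcr, Atp5, Cox4i, Cox5, Cox6, Cox7 or Cox8, or is Sdha, Sdhb, Sdhc, Sdhd or Cyc1, among 56414 genes measured by RNA-seq. Of the 93, 36 belong to complex I, 4 to complex II, 9 to complex III, 20 to complex IV and 15 to complex V. The symbols also took in 7 complex I assembly factors (Ndufaf1 to Ndufaf7) and 2 genes related to complex V by name (Atp5s and Atp5sl). Ndufa4 and its relative Ndufa4l2 were placed with complex IV, where Ndufa4 resides. Subunits encoded by the mitochondrial genome were not analysed here.

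RNA was taken from mammary tumors of C57Bl/6 mice, with 1 library per tumor. M/D-driven tumors arose in females that carried a 50 mg pellet releasing the progestin medroxyprogesterone acetate (M) over 90 days from 6 to 9 weeks of age, and that were gavaged with the carcinogen 7,12-dimethylbenz[a]anthracene (D). Each gavage delivered 200 µL at 5 mg per mL in corn oil. AT3 tumors grew from 1000000 cells of the mouse mammary carcinoma line AT3 placed under the skin, so all AT3 tumors share 1 cell line, whereas each M/D-driven tumor arose on its own. Mice entered a treatment group once their tumor measured 0.25 cm2. They then drank water without addition or with 0.5% nicotinamide (NAM), a form of vitamin B3, for 10 days. The M/D-driven model had 4 tumors without and 4 with NAM, and the AT3 model had 3 of each. The labels number the tumors but not the mice, so p-values measure the spread between these tumors only.

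The respiratory chain passes electrons from NADH (at complex I) and from succinate (at complex II) through complex III and the carrier cytochrome c to oxygen at complex IV. Protons pumped on the way drive complex V, the ATP synthase. Subunits from both genomes must be combined for complexes I, III, IV and V, and several complex IV subunits exist as isoforms used by muscle, brown fat, lung, testis or hypoxic cells in place of the widely expressed form. NAM is a precursor of NAD, whose reduced form is the substrate of complex I.

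Between 40936900 and 84178000 reads were assigned to genes per tumor. Of the normalized count of M/D-driven tumors, the 93 genes took 1.41% ± 0.06 (SD) without NAM and 1.5% ± 0.26 with it, over 4 tumors each. In AT3 tumors their share was 3.02% ± 0.62 (SD) without NAM and 2.22% ± 0.32 with it, over 3 tumors each. Single libraries stood apart from their group. The 7 epithelial markers summed to 7047 in NAM-treated M/D-driven tumor 1 and to at least 250181 in the other 7 M/D-driven tumors. Its 6 leukocyte markers summed to 163038 against at most 36836, with the B cell gene Cd79a at 86806 against at most 822. This tumor is also the only M/D-driven tumor of experiment 2, the other 7 being of experiment 1. The 7 skeletal muscle markers ranged from 251 in untreated M/D-driven tumor 1 to 273581 in NAM-treated M/D-driven tumor 4. Counts and marker sums are on the scale of each model's own normalization, except where AT3 and M/D-driven tumors are compared with each other, for which all 14 tumors were scaled together. All 6 AT3 tumors are of experiment 3, so that model and experiment cannot be told apart. In whole tumors, fewer cells of a type and less RNA per cell cannot be told apart either.

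In M/D-driven tumors, no member was called higher or lower with NAM. A call needed a limma p, before adjustment, no higher than 0.05 together with a change of at least 1.5-fold, and 91 members passed the filter of a mean normalized count of 10 in at least 1 group. None of the 91 was called, where 3.03% of all genes tested were called higher and 3.19% lower. The median log2 fold change of members was -0.02, against 0.01 over all genes. By complex, it was -0.02 for complex I, 0.04 for complex II, -0.13 for complex III, -0.03 for complex IV and -0.03 for complex V. The lowest p among members was 0.0633, for Ndufa4, and the lowest adjusted p was 0.738. By p before adjustment, limma and edgeR put 0 members at or under 0.05, and DESeq2 put 2. When tumor 1 of experiment 2 was left out, 0 members were called and the median was -0.10.

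No core subunit was called in M/D-driven tumors, and the groups overlapped for each. Ndufs1, which holds iron-sulfur clusters at the NADH end of complex I, had normalized counts of 6675, 5217, 6351 and 5764 in untreated and 6730, 5990, 5541 and 4421 in NAM-treated tumors. Both groups overlapped, and the log2 fold change was -0.09 ± 0.18 (SE). Atp5b, the catalytic beta subunit of ATP synthase, counted 108705, 86424, 90746 and 99115 in untreated against 103965, 109738, 92179 and 58506 in NAM-treated tumors. The lowest of these values belonged to NAM-treated tumor 4, as was the case for 72 of the 91 members. Sdhb, the iron-sulfur subunit of succinate dehydrogenase, counted 5988, 5912, 5660 and 5195 in untreated tumors and 9564, 7464, 7170 and 5246 in NAM-treated tumors. Its NAM-treated values in tumors 1, 2 and 3 lay above every untreated value, but that in tumor 4 did not, and its change of 0.34 ± 0.20 (SE) was not called. Groups did not overlap for Ndufa5, an accessory complex I subunit that was lower with NAM, and for Atp5s, which was higher. These are 1 member in each direction, where 2% of all genes were lower and 2.43% higher without overlap.

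The spread between tumors was shared by the complexes and was also seen in gene lists outside the chain. The median deviation of the members from their mean over the 8 M/D-driven tumors was -0.51 in NAM-treated tumor 4 and 0.31 in NAM-treated tumor 2, against -0.05 to 0.18 in the 4 untreated tumors. NAM-treated tumor 4 was the lowest of 8 for complex I (-0.48), complex III (-0.59), complex IV (-0.56) and complex V (-0.57). For complex II it shared the lowest position with untreated tumor 4, both at -0.20. Outside the chain, mitochondrial ribosome genes were at -0.57 in NAM-treated tumor 4 and proteasome genes at -0.52. In NAM-treated tumor 2 these lists were at 0.28 and 0.25, although mitochondrial ribosome genes were highest in NAM-treated tumor 1 (0.37). Over all genes the median was 0.02 in NAM-treated tumor 4 and 0.01 in NAM-treated tumor 2. Without NAM-treated tumor 4, the median change of members was 0.13 and 1 member was called higher. The skeletal muscle markers were also at their highest in NAM-treated tumors 4 (273581) and 2 (91086), whose members were lowest and highest. The part of muscle in these deviations was not tested.

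**Figure D1:**
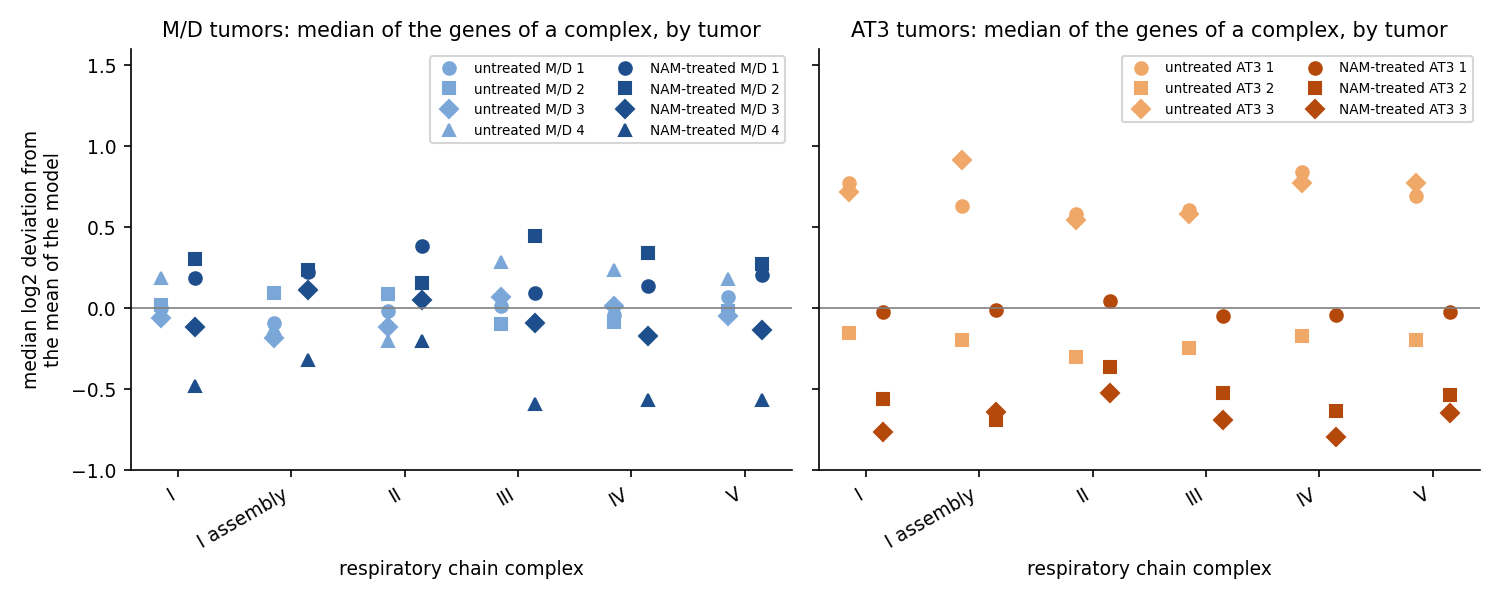
Median log2 deviation of the genes of a complex from their mean over the tumors of a model, for M/D-driven tumors (left) and AT3 tumors (right). Each symbol is 1 tumor and its shape gives the replicate number. NAM-treated M/D-driven tumor 4 is the lowest at complexes I, III, IV and V, and among AT3 tumors untreated 2 lies below NAM-treated 1 at every complex.

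Isoforms tied to particular tissues differed far more between single M/D-driven tumors than the widely expressed subunits did. Cox6a2, the heart and skeletal muscle form of subunit 6A, had normalized counts of 40.5, 13, 206 and 139 in untreated and 187, 710, 19.3 and 1354 in NAM-treated M/D-driven tumors. Its highest values were those of NAM-treated tumors 4 and 2, which also had the highest muscle marker sums. Its widely expressed partner Cox6a1 stayed between 10919 and 25459. Cox6a2 had the largest positive change of all members (1.94 ± 1.38, SE, with an adjusted p of 0.788 by limma), and the groups overlapped.

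Cox8b, a form used by heart, skeletal muscle and brown fat in rodents, counted 22.9, 97.8, 869 and 76.5 in untreated and 100, 434, 90.2 and 606 in NAM-treated M/D-driven tumors. It was highest in untreated tumor 3, the tumor in which Ucp1, the uncoupling protein of brown adipocytes, counted 1563 against at most 20.7 in the other 7. Another brown adipocyte marker, Cidea, was nearly as high in untreated tumor 4 (2590) as in untreated tumor 3 (2677), and the remaining one, Elovl3, was at 15.8 in untreated tumor 3 and highest in NAM-treated tumor 2 (225). The 3 together summed to 4256 in untreated tumor 3 and 2627 in untreated tumor 4, so Cox8b did not follow them in tumor 4. Muscle markers summed to 29661 and 14939 in these 2 tumors. Cox7a1, another form of striated muscle and brown fat, was likewise highest in untreated tumor 3 (445) and NAM-treated tumor 4 (384) and lay between 87.7 and 209 in the other 6. The part of either tissue in these counts was not tested.

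Cox4i2, the form of subunit 4 known from lung and from oxygen-sensing cells, followed another order. Its normalized counts were 161, 1478, 113 and 135 in untreated and 131, 5352, 188 and 284 in NAM-treated M/D-driven tumors. Untreated tumor 2 and NAM-treated tumor 2 stood above the other 6 tumors, while Cox4i1, the common form, ranged only from 21181 to 33944. The 6 pericyte markers summed to 26841 and 22456 in those 2 tumors and to between 17633 and 30373 in the other 6. Ndufa4l2, a form induced by hypoxia, counted 337, 159, 614 and 376 in untreated and 120, 1078, 110 and 95.5 in NAM-treated tumors. It was highest in NAM-treated tumor 2, which also had the highest sum of 7 hypoxia response genes (57102, with 12741 to 40129 in the other 7). Cox6b2, typical of testis, counted 259, 167, 261 and 271 in untreated against 49.2, 180, 345 and 111 in NAM-treated tumors, without separation of the groups. Cox7b2 and Cox8c did not pass the filter, Cox7b2 reaching at most 5.08 and Cox8c at most 2.44 in any of the 14 tumors.

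**Figure D2:**
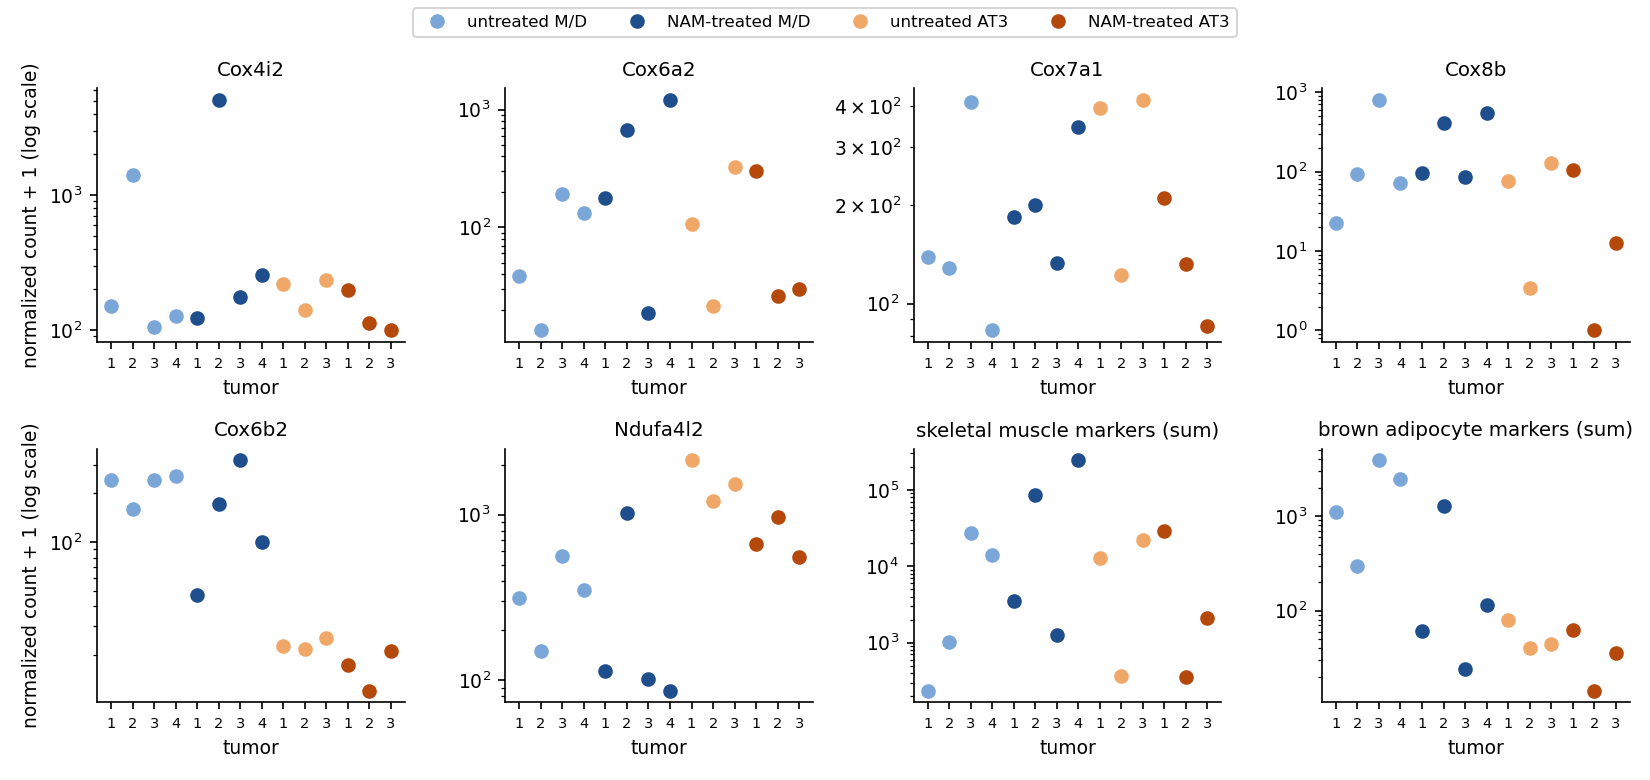
Normalized counts (plus 1, log scale, all 14 tumors scaled together) of 6 tissue-restricted isoforms and summed counts of skeletal muscle and brown adipocyte markers, 1 point per tumor. Cox4i2 is high in tumor 2 of both M/D-driven groups, Cox6a2 in the M/D-driven tumors with most muscle marker counts, and Cox6b2 is lower in every AT3 tumor than in every M/D-driven tumor.

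In AT3 tumors, 60 of 91 members were lower with NAM and none was higher, where 10.9% of all genes tested were called lower and 12.2% higher. Among members, 88 had a log2 fold change below 0, and the median was -0.90 against -0.05 over all genes. Lower members numbered 29 of 36 in complex I (median -0.91), 0 of 4 in complex II (-0.55), 5 of 9 in complex III (-0.88), 12 of 18 in complex IV (-0.97), 9 of 15 in complex V (-0.83), 5 of 7 among the complex I assembly factors (-0.90) and 0 of 2 among the genes related to complex V (-0.39). None passed an adjusted p of 0.05, the lowest being 0.166 by limma. DESeq2 on whole reads gave 69 lower members, with 31 at an adjusted p of at most 0.05, and edgeR gave 64 with 0. Over all 19281 genes tested, DESeq2 called 2415 lower and edgeR 2147. An adjusted p of at most 0.05, in either direction, was reached by 1919 genes with DESeq2, 0 with edgeR and 1 with limma.

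**Figure D3:**
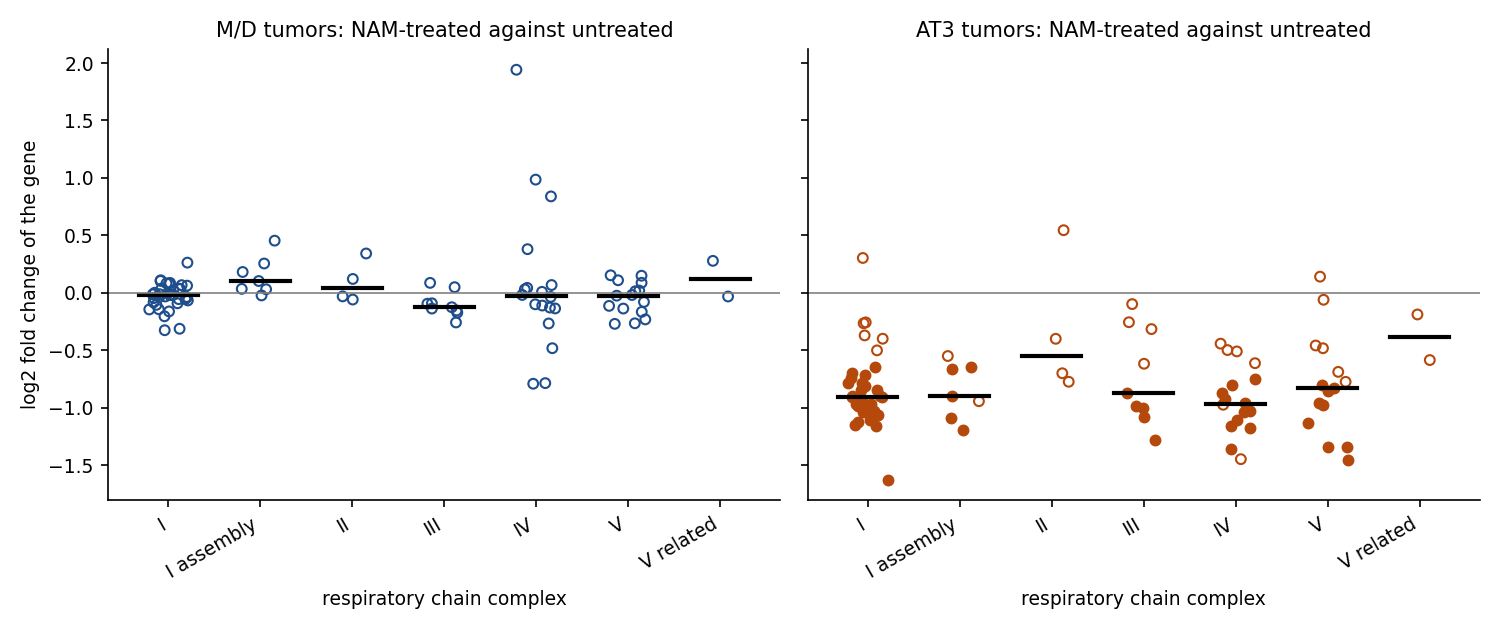
Log2 fold change of each member with NAM, grouped by complex, in M/D-driven tumors (left) and AT3 tumors (right). Filled points were called at p of at most 0.05 and 1.5-fold, open points were not, and bars mark medians, which lie between -0.13 and 0.12 in M/D-driven tumors and between -0.97 and -0.39 in AT3 tumors.

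The AT3 groups overlapped through untreated tumor 2 and NAM-treated tumor 1. In untreated tumors 1 and 3 the members deviated by a median of 0.77 each from their mean over the 6 tumors, whereas untreated tumor 2 deviated by -0.17. NAM-treated tumors 1, 2 and 3 deviated by -0.02, -0.56 and -0.73. Untreated tumors 1 and 3 were both above every NAM-treated tumor for 85 of 91 members, but untreated tumor 2 lay within the NAM-treated range for 75, and NAM-treated tumor 1 was the highest NAM-treated tumor for 86. As a result, only 9 of 91 members (9.89%) were lower in every NAM-treated than in every untreated tumor, close to the 11% of all genes. In the other direction it was 1 member, Ndufs1, against 11.7% of all genes. Leaving out 1 tumor at a time moved the number of lower members. It was 17, 74 and 20 when untreated tumor 1, 2 or 3 was left out, and 72, 28 and 18 when NAM-treated tumor 1, 2 or 3 was. The number of lower genes over all genes tested, 2100 with every tumor, moved in the same direction. It was 997, 3310 and 1194 without untreated tumor 1, 2 or 3, and 2955, 882 and 714 without NAM-treated tumor 1, 2 or 3.

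Small accessory subunits led the decrease in AT3 tumors. Ndufb4, an accessory subunit of the membrane arm of complex I, counted 9002, 2963 and 8281 in untreated and 3565, 1735 and 1209 in NAM-treated tumors. Untreated tumor 2 lay under NAM-treated tumor 1, so the groups overlapped. Its log2 fold change was -1.63 ± 0.50 (SE, adjusted p = 0.166 by limma). Atp5e, the epsilon subunit of the ATP synthase stalk, counted 64854, 24965 and 65762 against 25853, 15331 and 13077, again with untreated tumor 2 under NAM-treated tumor 1. It fell by 1.45 on the log2 scale (SE 0.41). Cox7c, a small subunit of complex IV, counted 6716, 2995 and 4323 in untreated and 2446, 1758 and 1203 in NAM-treated tumors. All of its untreated values were above all NAM-treated values, and the change was -1.36 ± 0.35 (SE).

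Of the core subunits of complex I, Ndufs3 (-0.65 ± 0.27, SE), Ndufs8 (-0.78 ± 0.34) and Ndufv2 (-0.94 ± 0.38) were called lower. Ndufs7 (-0.50 ± 0.24), which holds an iron-sulfur cluster, and Ndufv1 (-0.26 ± 0.20), which binds NADH, were not called. Ndufs1 counted 3971, 4249 and 4483 in untreated and 4616, 5166 and 5953 in NAM-treated tumors. All NAM-treated values were thus above the untreated ones, with a change of 0.30 ± 0.20 (SE, adjusted p = 0.348 by limma) that did not pass. The flavoprotein Sdha, which oxidizes succinate in complex II, counted 8672, 12953 and 9046 in untreated and 11629, 16081 and 16857 in NAM-treated tumors. Its change of 0.54 ± 0.25 (SE) was the largest positive one among members and was not called (adjusted p = 0.213 by limma), with untreated tumor 2 above NAM-treated tumor 1. Its partner Sdhb and the membrane anchors Sdhc and Sdhd had changes of -0.70 ± 0.33, -0.40 ± 0.26 and -0.78 ± 0.36 (SE), none of them called.

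In complex III, the core protein Uqcrc1 (-0.10 ± 0.20, SE), the Rieske iron-sulfur protein Uqcrfs1 (-0.62 ± 0.28) and cytochrome c1, Cyc1 (-0.32 ± 0.24), were not called, while the small subunits Uqcrh, Uqcr10, Uqcrb, Uqcrq and Uqcr11 were lower by -1.28 to -0.88. In complex IV, Cox4i1 counted 98597, 42013 and 84789 in untreated and 46960, 33129 and 26889 in NAM-treated AT3 tumors. Both of its highest values came from untreated tumors 1 and 3, and its change was -1.02 ± 0.36 (SE, adjusted p = 0.169 by limma). Cox5a (-0.88 ± 0.34) and Cox5b (-0.75 ± 0.29) were called lower as well, as were the widely expressed forms Cox6a1 (-0.80 ± 0.31), Cox6b1 (-1.03 ± 0.33), Cox7a2 (-1.16 ± 0.37), Cox7b (-1.18 ± 0.40) and Ndufa4 (-1.04 ± 0.40). Cox8a was at -0.61 ± 0.29 and was not called. Among restricted isoforms, Ndufa4l2 alone was called, with counts of 1711, 1013 and 1233 against 548, 825 and 475. Its groups did not overlap (-1.10 ± 0.29, SE). The sum of hypoxia response genes did overlap, at 82366 to 112329 in untreated and 60573 to 84703 in NAM-treated tumors. Of the 7 hypoxia response genes, 2 were called lower with NAM and 1, Slc2a1, was called higher. The muscle forms Cox6a2, Cox7a1 and Cox8b were high where muscle markers were, in untreated tumors 1 and 3 and NAM-treated tumor 1. In complex V, the catalytic core subunits Atp5a1 (0.14 ± 0.21, SE), Atp5b (-0.06 ± 0.23) and Atp5c1 (-0.78 ± 0.35) were not called. Of the 3 genes for the ring subunit c, Atp5g1 (-0.80 ± 0.26) and Atp5g2 (-0.83 ± 0.30) were lower and Atp5g3 (-0.48 ± 0.26) was not called.

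Other measures moved along the same tumors. Skeletal muscle markers summed to 10326, 301 and 17806 in untreated and 23558, 303 and 1805 in NAM-treated AT3 tumors, so untreated tumor 2 was low here too. Leukocyte markers were at 2417 to 3740 in untreated and 5214 to 7260 in NAM-treated tumors, endothelial markers at 2181 to 3183 against 3583 to 6118, and pericyte markers at 6506 to 8039 against 9066 to 10953. These 3 sums did not overlap between the groups. Epithelial markers summed to 80785 to 100557 against 73038 to 82272 and adipocyte markers to 410 to 614 against 247 to 1211, both with overlap. Within the epithelial list Cdh1 went the other way, at 6626 to 9957 against 10460 to 19039. Their part in the lower level of respiratory genes was not tested.

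The decrease in AT3 tumors followed transcript length. Lengths were those of the principal transcript of a gene in the GENCODE annotation, with a median of 758 bases for the 91 members and 2161 bases over all genes that have one. Of the 56 members under 1000 bases, 46 were called lower, against 14 of the 35 members of 1000 bases or more. Over all genes tested, the median log2 fold change with NAM rose with length, from -0.996 under 500 bases to -0.73 at 500 to 1000 bases, -0.45 at 1000 to 1500, -0.25 at 1500 to 2000, 0.03 at 2000 to 3000, 0.30 at 3000 to 4000 and 0.73 at 6000 or more. Members of the first 5 classes had medians of -1.06 (14 members), -0.93 (42), -0.78 (17), -0.37 (11) and 0.14 (5). The 2 members of 3000 to 4000 bases, Ndufaf4 and Sdhc, did not follow this rise and had a median of -0.65. Across 15569 genes, which share the same 6 libraries, Spearman's correlation between length and fold change was 0.61 in AT3 tumors, against -0.03 across 17368 genes in M/D-driven tumors. Among the 91 members it was 0.59 in AT3 tumors and 0.00 in M/D-driven tumors.

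The trend was carried by the same tumors as the members' levels. Spearman's correlation between length and a gene's deviation from its mean over AT3 tumors was -0.58, 0.06 and -0.55 in untreated tumors 1, 2 and 3 and -0.22, 0.59 and 0.62 in NAM-treated tumors 1, 2 and 3. In M/D-driven tumors 1, 2, 3 and 4 it was 0.09, 0.04, 0.07 and -0.06 without NAM. With NAM it was 0.02, -0.33, 0.12 and 0.18 there, so single M/D-driven tumors had a length trend too. The lowest and highest of these were tumors 2 and 4, whose members were highest and lowest. Each AT3 tumor was then corrected for its trend over length and GC content. After this, 4 of 91 members (4.40%) were lower with NAM and 0 higher, where 6.31% of all genes with a length were lower. The 4 were Ndufb4 (-1.04), the assembly factors Ndufaf5 (-0.62) and Ndufaf4 (-0.91), and Sdhc (-0.59). The median of members was then -0.16, against 0.05 over all genes, and was -0.19, -0.24, -0.04, -0.09 and -0.10 for complexes I, II, III, IV and V. With the longest transcript of each gene instead, 13 members were lower, against 6.89% of all genes, and Sdha (0.61) was higher. What the trend with length stands for was not tested.

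**Figure D4:**
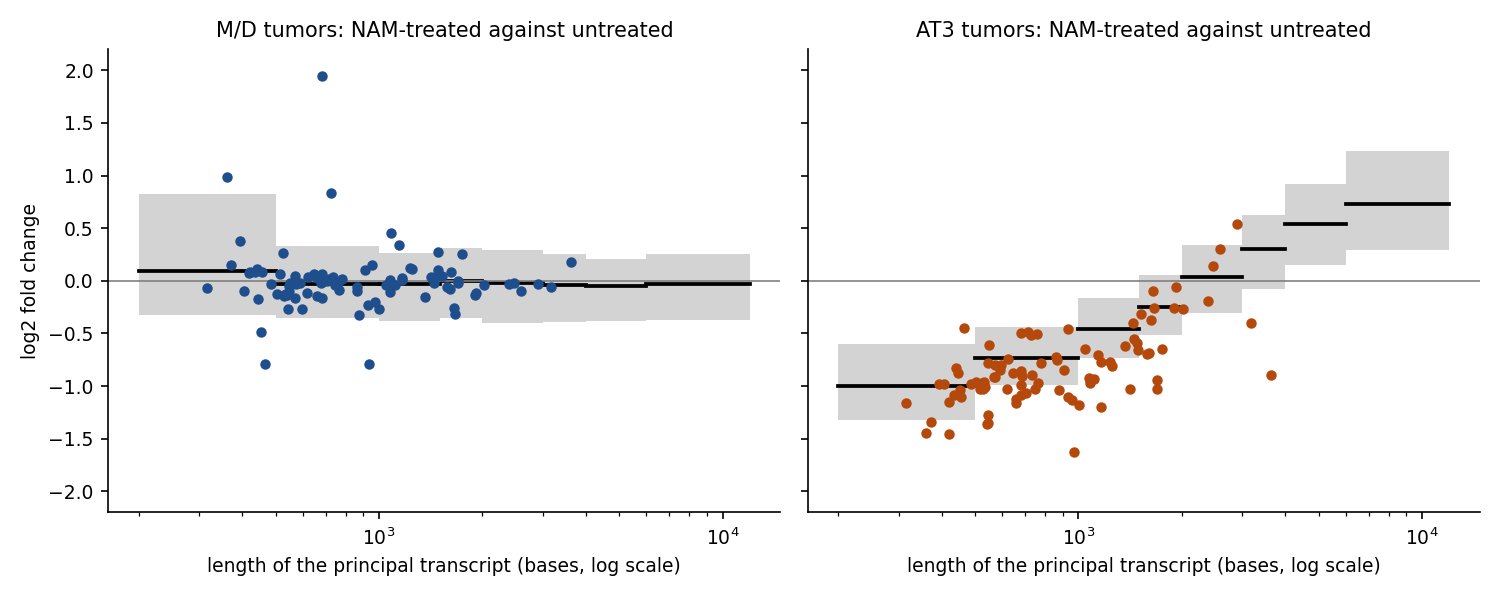
Log2 fold change with NAM against the length of the principal transcript (log scale) in M/D-driven (left) and AT3 tumors (right). Points are members, black lines are medians over all genes of a length class and grey boxes span its quartiles. In AT3 tumors the class medians rise from -0.996 to 0.73 and most members lie near or under the line of their class.

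Promoter sequences were compared between members that fell and members that did not, since many respiratory genes are known to be driven by the factors NRF1, GABP (an Ets factor) and YY1. Ndufb4, the member with the largest fall, Sdha, the one with the largest positive change, and Uqcrh, the member with the largest fall to hold Ets letters in this window, are shown by the 120 bases before their start. Capitals mark the letters for NRF1 (GCGC, any base, then TGCGC) and for Ets (CCGGAAGT) on either strand.
Ndufb4 (chr16:37654369-37654488, minus strand): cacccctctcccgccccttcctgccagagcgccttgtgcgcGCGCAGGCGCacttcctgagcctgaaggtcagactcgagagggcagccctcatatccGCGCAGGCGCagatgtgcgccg
Sdha (chr13:74350241-74350360, minus strand): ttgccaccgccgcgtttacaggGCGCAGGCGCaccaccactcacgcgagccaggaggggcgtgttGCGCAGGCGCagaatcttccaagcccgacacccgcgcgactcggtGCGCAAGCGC
Uqcrh (chr4:116075071-116075190, minus strand): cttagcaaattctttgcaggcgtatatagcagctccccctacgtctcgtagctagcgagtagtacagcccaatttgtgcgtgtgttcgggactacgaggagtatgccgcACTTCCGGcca

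These sequences are from RefSeq on GRCm38.p6, which gave promoters (250 bases before to 50 after the start) for 76 of the 93 members. NRF1 letters were found in 19 of the 76 (25%), against 5.19% of 27025 genes. Ets letters were found in 5 (6.58%, against 4.31%) and the YY1 letters AAGATGGC in 11 (14.5%, against 3.19%). At least 1 of the 3 was held by 33 members (43.4%, against 11.7% of all genes). Of 53 members lower with NAM in AT3 tumors, 14 held NRF1 letters, as did 5 of 22 that were not called. Ndufb4 and Sdha both held NRF1 letters more than once. Their changes had opposite signs, but that of Sdha was not called. The part of these motifs in the changes was not tested.

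The effect of NAM was more negative in AT3 than in M/D-driven tumors for 31 of 91 members and less negative for none, where 6.97% of all genes passed in the first and 7.9% in the second direction of this test (limma, interaction term over 14 tumors). None passed an adjusted p of 0.05 by limma, edgeR or DESeq2. The median difference was -0.88, against -0.04 over all genes. The count was 14 of 36 in complex I, 1 of 4 in complex II, 2 of 9 in complex III, 4 of 18 in complex IV, 5 of 15 in complex V and 5 of 7 among complex I assembly factors. Among the members called, Atp5e had the largest difference (-1.54 ± 0.50, SE), followed by Atp5k, a small membrane subunit of ATP synthase (-1.49 ± 0.49), and the assembly factor Ndufaf6 (-1.40 ± 0.58). Atp5k counted 25633, 11448 and 22377 in untreated and 10726, 6428 and 5844 in NAM-treated AT3 tumors, without overlap. In M/D-driven tumors it counted 5894, 5761, 5752 and 7517 in untreated and 10989, 8308, 5659 and 4285 in NAM-treated tumors. Its groups overlapped there, the highest value being that of NAM-treated tumor 1.

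The count was sensitive to single tumors and to scaling. It was 8, 71 and 9 without untreated AT3 tumors 1, 2 and 3, and 60, 12 and 8 without NAM-treated AT3 tumors 1, 2 and 3. Over all genes, 1582 were called in this direction with every tumor. This became 1272, 2242 and 1343 without untreated AT3 tumors 1, 2 and 3, and 2113, 972 and 873 without NAM-treated ones. The count of members was 20 without untreated M/D-driven tumor 1, 16 without NAM-treated tumor 2 and 63 without NAM-treated tumor 4. Over all genes these were 1232, 1616 and 1920. TMM scaling gave 17, and 22 were left in experiments 1 and 3, without NAM-treated M/D-driven tumor 1. With the trend of principal length and GC content removed, 7 members remained called, against 3.77% of all genes. These were Ndufs4, Ndufab1, Atp5j2 and the assembly factors Ndufaf4, Ndufaf5, Ndufaf6 and Ndufaf7, all of which except Ndufaf6 were named after their values were seen.

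Untreated AT3 tumors had higher levels of respiratory chain genes than untreated M/D-driven tumors. With all 14 tumors scaled together and a call at an adjusted p of at most 0.05 (limma) and 1.5-fold, 79 of 91 members were higher and 1 was lower, where 20.9% of all genes were higher and 22.9% lower. The median log2 fold change was 1.62, against -0.08 over all genes. Higher members numbered 35 of 36 in complex I (median 1.67), 3 of 4 in complex II (1.11), 6 of 9 in complex III (1.35), 13 of 18 in complex IV (1.48), 14 of 15 in complex V (1.71), 7 of 7 among complex I assembly factors (1.72) and 1 of 2 among the genes related to complex V. Every untreated AT3 tumor was above every untreated M/D-driven tumor for 79 members, as was the case for 24.6% of all genes.

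**Figure D5:**
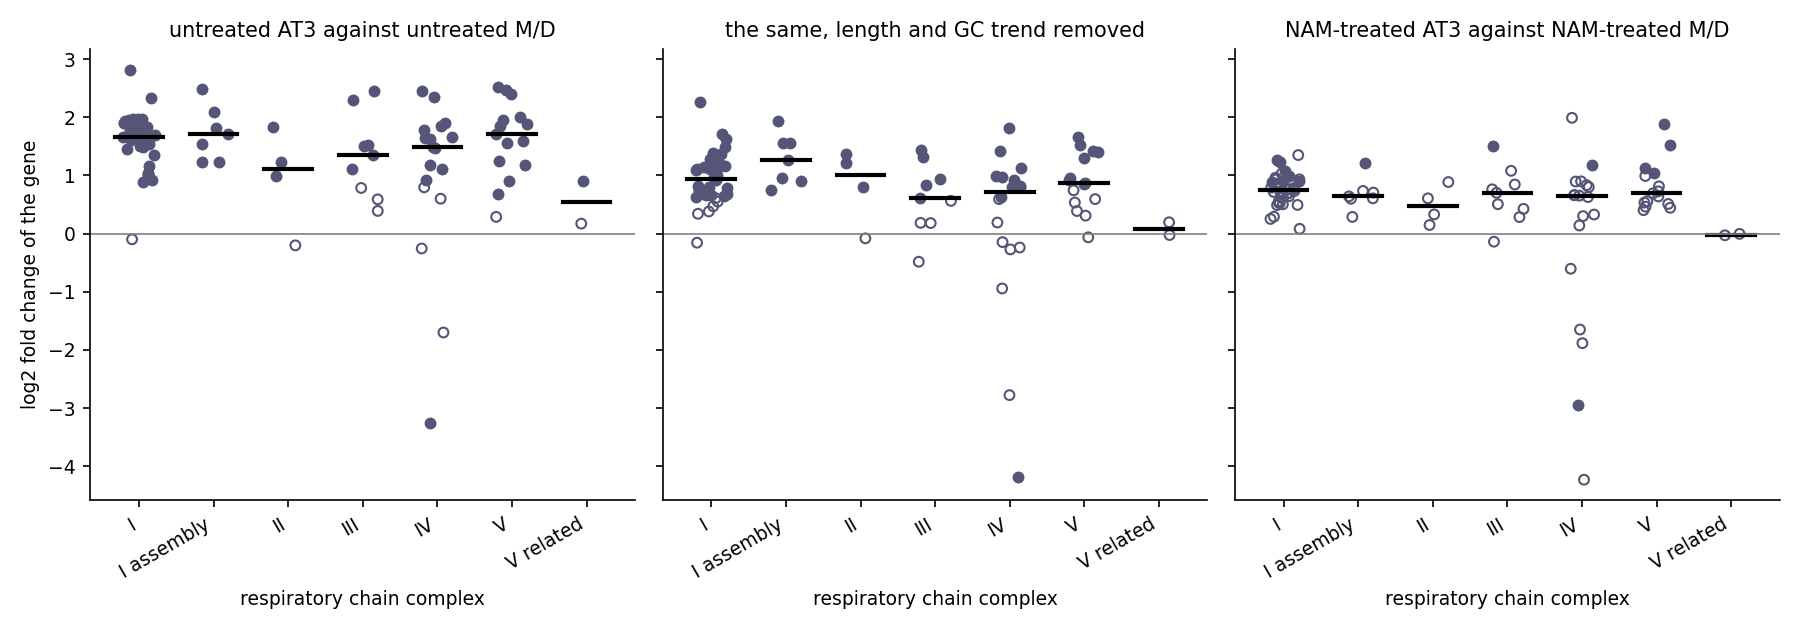
Log2 fold change of each member in AT3 over M/D-driven tumors, by complex, in untreated tumors (left), in untreated tumors after removal of the length and GC trend (middle) and in NAM-treated tumors (right). Filled points passed an adjusted p of 0.05 and 1.5-fold, and bars mark medians. All members are at a median of 1.62 on the left and 0.84 in the middle, and Cox6b2 is the only filled point under 0.

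The 3 members with the largest rise were Ndufb4, Atp5h and Ndufaf5. Atp5h, a subunit of the peripheral stalk of ATP synthase, had jointly normalized counts of 16521, 8124 and 16333 in untreated AT3 tumors against 1997, 2219, 2282 and 2598 in untreated M/D-driven tumors. The groups were apart, with a log2 fold change of 2.52 ± 0.30 (SE, adjusted p = 6.98e-05). Ndufb4 counted 11220, 3544 and 10317 against 887, 950, 964 and 1510 (2.82 ± 0.51, adjusted p = 0.00106). Ndufaf5, an enzyme that modifies a complex I subunit during assembly, counted 4102, 1663 and 5066 against 592, 726, 507 and 513 (2.49 ± 0.36, adjusted p = 0.000238). In all of these, untreated tumor 2 was the lowest AT3 tumor and still above the M/D-driven tumors.

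Cox6b2 was the only member called lower, at 21.7, 20.6 and 24.3 in untreated AT3 and 240, 158, 240 and 253 in untreated M/D-driven tumors (-3.25 ± 0.54, SE, adjusted p = 0.000619). Its partner Cox6b1 was higher (1.62 ± 0.31). Ndufa4l2 was at 2133, 1212 and 1536 against 312, 150, 564 and 351 (2.35 ± 0.72, adjusted p = 0.0175), and hypoxia response genes summed to 98530 to 139942 against 12955 to 36866. Of the muscle and lung forms, none was called: Cox4i2 was at -0.25 ± 1.12, Cox6a2 at 0.60 ± 1.43, Cox7a1 at 0.80 ± 0.58 and Cox8b at -1.70 ± 1.61 (SE). All 3 genes of subunit c were higher, with Atp5g1 (2.47 ± 0.25) above Atp5g2 (1.71 ± 0.31) and Atp5g3 (1.59 ± 0.26), although these differences between genes were not tested. Among the other widely expressed forms, Cox6a1 (1.79), Cox7a2 (1.90), Cox7b (1.85), Cox8a (1.47) and Ndufa4 (0.93) were higher, Ndufa4 being at -0.27 and not called with the length trend removed.

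Several core subunits were not called between the models. Ndufs1 was at 4949, 5083 and 5584 in untreated AT3 against 6191, 4923, 5834 and 5384 in untreated M/D-driven tumors (-0.10 ± 0.19, SE), and the groups overlapped. Sdha was at 10808, 15496 and 11269 against 15494, 15507, 14367 and 11819 (-0.20 ± 0.22), overlapping too. Atp5a1 (0.29 ± 0.22) and Uqcrc1 (0.39 ± 0.21) were not called either. Atp5b was called higher at 0.69 ± 0.24 (adjusted p = 0.0338). Further core subunits were higher, by 1.65 (Ndufs3), 1.02 (Ndufs7), 1.63 (Ndufs8), 0.89 (Ndufv1), 1.90 (Ndufv2), 1.24 (Sdhb), 0.99 (Sdhc), 1.83 (Sdhd), 1.35 (Uqcrfs1), 1.11 (Cyc1), 1.66 (Cox4i1), 1.64 (Cox5a), 1.49 (Cox5b) and 1.96 (Atp5c1) on the log2 scale.

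With each tumor's length and GC trend removed, 64 of 91 members (70.3%) were still called higher in untreated AT3 tumors, against 17.7% of all genes with a length, and the median was 0.84. Between NAM-treated tumors, AT3 against M/D-driven, 15 members (16.5%) were higher, against 6.28% of all genes, with a median of 0.69, and 37 (40.7%) were higher with the trend removed, against 9.06% of all genes. Cox6b2 was lower in both of these. Untreated AT3 and M/D-driven tumors also differed in the sums of epithelial markers (100644 to 125324 against 286566 to 946312), leukocyte markers (3013 to 4660 against 21591 to 27557), adipocyte markers (491 to 765 against 22029 to 45525) and brown adipocyte markers (38.9 to 79.5 against 293 to 3910). Not all single genes followed the sums. Called lower in AT3 were 2 of 7 epithelial, 4 of 6 leukocyte, 5 of 5 adipocyte and 1 of 3 brown adipocyte genes, and 0 were called higher. Fold changes above 0 were found for 2 epithelial, 1 leukocyte and 1 brown adipocyte gene. The part of this makeup in the higher level of respiratory genes was not tested.

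Genes that build or regulate the chain were set beside the members. Cycs, which encodes cytochrome c, counted 14172, 7270 and 23256 in untreated and 10721, 3597 and 3684 in NAM-treated AT3 tumors. The groups overlapped, and the change was -1.36 ± 0.51 (SE), called lower, and -1.29 with the length trend removed. It was 2.21 higher on the log2 scale in untreated AT3 than in untreated M/D-driven tumors (adjusted p = 0.00269). Of 31 assembly factors outside the member list, 12 were lower with NAM in AT3 tumors, led by Pet100 (-1.50), Uqcc2 (-1.27) and Cox17 (-1.27), and 1, the heme A synthase Cox15 (0.69), was higher. In the comparison of models, 29 of the 31 were higher in AT3 tumors and Acad9 (-1.03) was lower. With the trend of principal length and GC content removed, 6 of the 31 were lower and 0 higher with NAM in AT3 tumors (median -0.27 in place of -0.57), and 22 were higher in untreated AT3 tumors. With NAM in M/D-driven tumors 0 of 31 were called.

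Among 11 regulators of respiratory genes, 3 were higher with NAM in AT3 tumors and 1 was lower. Ppargc1a, the coactivator PGC-1alpha, counted 384, 376 and 339 in untreated and 473, 1212 and 682 in NAM-treated AT3 tumors, without overlap (0.998 ± 0.338, SE). Gabpa, the DNA-binding subunit of GABP, counted 743, 835 and 816 against 1090, 1702 and 1995, also without overlap (0.96 ± 0.26). Ppargc1b, the related coactivator PGC-1beta, was higher by 1.10 ± 0.42, with overlap, while Tfam, which packages mitochondrial DNA, was at -0.66 ± 0.28 and was called lower. The rises of Ppargc1a, Gabpa and Ppargc1b had the opposite sign to most members, whereas Tfam had the same sign. Gabpa, Ppargc1b and Tfam remained called with the length trend removed. With the trend of principal length and GC content removed, 3 of the 11 were higher and 2 lower. None of the 11 was called in M/D-driven tumors, where Ppargc1a was at -1.34 ± 0.71 (SE). Between untreated tumors, Tfam was higher in AT3 (1.08) and Gabpa (-1.20) and Ppargc1b (-2.04) were lower.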

How the data were processed

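RNA-seq was analysed in 14 mouse tumors. The authors sequenced polyA RNA libraries in paired-end mode, mapped reads on mm10 (STAR 2.4.0 in the submitters' processing notes), counted them per gene of Mouse FAST DB and divided each tumor's counts by a DESeq2 size factor. The deposited values are this normalized count, a signal per gene, and M/D-driven and AT3 tumors were normalized apart. All values were whole multiples of 1 step per tumor (100% within 0.01 of a whole read), so that whole reads were recovered, 40936900 to 84178000 per tumor. Replicate tumors set the precision, and their spread contains the counting error. Of 56414 genes, 19524 were at 0 in every tumor.

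Groups came from the sample labels. Limma 3.58.1 (R 4.3.3) was fitted with a mean-variance trend on the scale log2(normalized count + 1), keeping genes whose mean reached 10 in 1 group or more, and fold changes are on that scale. P-values were adjusted by Benjamini-Hochberg over all genes tested. NAM effects were called at 1.5-fold and a p before adjustment of 0.05 or less, and differences between models at an adjusted p of at most 0.05 and 1.5-fold after recovered reads of all tumors were scaled by median-of-ratios size factors. Alternatives were other pseudocounts, filters and scalings, edgeR 4.0.16, DESeq2 1.42.0, removal of length and GC trends by a spline with 4 degrees of freedom, the replicate number as a block, and each tumor left out. Lengths of the principal transcript were an alternative chosen after the data were seen. GENCODE M21 gave lengths for all 93 members, and for 80.0% (M/D) and 80.7% (AT3) of tested genes. Limma and edgeR were run on simulated counts for the NAM effect in each model and for the comparison of models. These counts had a fixed dispersion and no trend with length. The interaction term and DESeq2 were not checked in this way.

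Named genes were the core subunits, the tissue-restricted isoforms with their common partners, and in each comparison the 3 largest rises and falls among members called. Genes outside this rule were named after their values were seen. One core subunit is not reported here by name. The members, the lists of assembly factors, regulators, cell type markers, citric acid cycle, mitochondrial ribosome and proteasome genes, and the rule were chosen with earlier results of these data known. Motifs were searched in RefSeq promoters. Tables were made with Python 3.11.15, pandas 2.3.3, numpy 2.4.6 and matplotlib 3.10.9.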

Additional observations from a re-analysis of the deposited data

Results flagged for a closer look

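In groups of 4 tumors, 96 sets of values (48 measures in both M/D-driven groups) were searched for a tumor far from the other 3, and 11 were found, where chance gives about 1 in 20. Among tissue-restricted isoforms, these were Cox4i2 in untreated tumor 2 (1478) and in NAM-treated tumor 2 (5352), Ndufa4l2 in NAM-treated tumor 2 (1078), Cox7a1 in untreated tumor 3 (445), Cox8b in untreated tumor 3 (869) and Cox6b2 in untreated tumor 2 (167, below the other 3). Among widely expressed subunits, these were Cox5b (9436), Cox6b1 (21088), Ndufb4 (1617) and Atp5k (7517), all highest in untreated tumor 4, and Ndufb4 in NAM-treated tumor 2 (2212). All values are normalized counts.

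The change with NAM differed between models (AT3 minus M/D-driven, interaction term of limma with a p before adjustment of 0.05 or less and 1.5-fold) for 8 of the named members. The differences were -1.54 for Atp5e, -1.49 for Atp5k, -1.40 for Ndufaf6, -1.19 for Cox7a2, -1.04 for Sdhb, -0.99 for Cox4i1, -0.94 for Atp5g2 and -0.92 for Cox6b1. None passed an adjusted p of 0.05.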

How the results depend on the processing

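Values for NAM in AT3 tumors and for the difference of NAM effects rested on few tumors and moved with transcript length. In AT3 tumors, removal of the trend with longest-transcript length and GC content left 13 members lower and 1 higher (median -0.17, with -0.17, -0.064, -0.19 and -0.17 in complexes I, III, IV and V), and with principal-transcript length 4 were lower (median -0.16, with -0.19, -0.039, -0.085 and -0.10). Cox5b was then at 0.020 and Atp5g2 at 0.029, respectively. At an adjusted p 0 were lower. The difference of effects had 17 lower and 1 higher members with TMM, 69 lower with upper-quartile scaling (complex II at -0.96), 49 with DESeq2, 8 lower and 1 higher (median -0.36; I -0.35, III -0.084, IV -0.38, V -0.30) with the longest and 7 (-0.25; I -0.27, III -0.038, IV -0.26, V -0.11) with the principal length removed, 0 at an adjusted p and 1 higher in experiments 1 and 3. Upper-quartile scaling moved the median of all genes by 0.11 in M/D-driven tumors, -0.21 in AT3 tumors, -0.35 in their difference and 0.57 between models, and TMM moved the last 2 by 0.12 and -0.17. In M/D-driven tumors DESeq2 called 1 member higher. Beyond the length-trend removal itself, the cause was not tested.

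Between models, the median was 2.18 with upper-quartile scaling (complexes I to V at 2.22, 1.67, 1.91, 2.04 and 2.26), 1.04 with the longest length removed (I 1.17, III 0.81, IV 0.83, V 1.16) and 0.84 with the principal length removed (I 0.95, III 0.61, IV 0.72, V 0.88), where Ndufa4 was at -0.27. In NAM-treated tumors 15 members were higher (median 0.69; I to V at 0.75, 0.47, 0.70, 0.64 and 0.69), and 37 with the principal length removed (0.57; 0.66, 0.51, 0.61, 0.51 and 0.60).

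Leaving out each tumor gave, for NAM in AT3 tumors, 17 to 74 lower and 0 to 1 higher members with a median of -1.18 to -0.71 (complex I -1.25 to -0.75, II -0.84 to -0.40, III -1.15 to -0.64, IV -1.32 to -0.72, V -1.16 to -0.67). In M/D-driven tumors it gave 0 to 1 lower and 0 to 1 higher with a median of -0.11 to 0.13 (I -0.13 to 0.14, II -0.01 to 0.14, III -0.26 to 0.06, IV -0.16 to 0.11, V -0.16 to 0.12). For the difference it gave 8 to 71 lower and 0 to 1 higher with a median of -1.19 to -0.70 (I -1.21 to -0.70, II -0.94 to -0.45, III -0.98 to -0.47, IV -1.25 to -0.74, V -1.17 to -0.59), and between models 72 to 81 higher and 1 lower with a median of 1.42 to 1.93 (I 1.52 to 2.02, II 0.97 to 1.42, III 1.21 to 1.65, IV 1.25 to 1.75, V 1.53 to 1.98). Over all genes tested, 714 to 3310 were lower with NAM in AT3 tumors in these fits, and 873 to 2242 in the difference.

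The deviations of same-numbered untreated and NAM-treated tumors had r = 0.11, -0.44, -0.22 and -0.19 in M/D-driven and 0.13, 0.26 and -0.16 in AT3 tumors. Between tumors of different number, r ranged from -0.22 to 0.39 in the M/D-driven model and from -0.32 to 0.28 in the AT3 model. Whether the replicate numbers pair the tumors could not be decided from so few pairs. With the replicate number as a block, 69 members were lower in AT3 tumors (29 at an adjusted p of at most 0.05), 0 were called in M/D-driven tumors and 31 in the difference. Over all 19281 genes tested in AT3 tumors, 2380 were then lower, and 1296 reached that adjusted p in either direction. The block with the longest-length trend removed gave 13 lower and 1 higher in AT3 tumors (median -0.17; complex III at -0.064), with Cox5b at 0.020. Over all alternatives, group values and counts stayed near the reported value in 670 cases and moved in 98.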

Other observations

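Gene groups outside the respiratory chain showed how far its pattern was shared. In AT3 tumors, 47 of 75 mitochondrial ribosome genes (Mrpl and Mrps) were lower with NAM and 0 higher, with a median log2 fold change of -0.74. With the trend of principal length and GC content removed, 18 of the 75 were lower (median -0.23). Over all genes, 10.9% were lower, and 6.31% with the trend removed. Of 39 proteasome genes that passed the filter, 2 were lower (median -0.48), and 0 with the trend removed (-0.04). Enzymes of the citric acid cycle, which feeds the chain with NADH and succinate, had 0 of 13 genes called and a median of -0.13. With the trend removed, 0 of the 13 were called and their median was 0.12. In M/D-driven tumors none of these 3 lists had a gene called with NAM, their medians being 0.01, -0.11 and -0.01.

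Between untreated AT3 and untreated M/D-driven tumors, 71 of 75 mitochondrial ribosome genes (median 1.5), 32 of 39 proteasome genes (1.09) and 6 of 13 citric acid cycle genes (0.55) were higher in AT3 tumors. With the trend removed these were 62 of 75, 22 of 39 and 3 of 13. Over all genes, 20.9% were higher, and 17.7% with the trend removed. The 3 lists were not compared with the respiratory chain genes by a test.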
